A study of Mus musculus with 12 samples.

Results

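Saa3, Hp, Lcn2 and Slpi are 4 genes of the acute phase and innate defense response, taken by name from the 54232 genes counted in bone marrow derived macrophages (BMDMs). They were selected on their measured levels in these same libraries, which earlier results had shown to be high in macrophages given tumor-conditioned medium (TCM). Their levels and fold changes in every comparison are therefore a description with its error, and carry no test. All 4 passed the filter on low counts, as did 16281 genes in all. BMDMs of C57BL/6 mice were cultured for 5 days and then kept for 24 h in 1 of 6 conditions, with 2 libraries of poly(A)-selected RNA per condition. NS cells received neither TCM nor drug. NB9464 TCM cells received medium conditioned by NB9464, a MYCN-amplified neuroblastoma line of the mouse. NBT3L TCM cells received that of NBT3L, a neuroblastoma line in which MYCN is not amplified. R788 cells received 500 nM R788 (fostamatinib), an inhibitor of the tyrosine kinase Syk, without TCM. NB9464 TCM + R788 and NBT3L TCM + R788 cells received both. Libraries carry the names SJ1 and SJ2 (NS), SJ3 and SJ4 (NB9464 TCM), SJ5 and SJ6 (NBT3L TCM), SJ7 and SJ8 (R788), SJ9 and SJ10 (NB9464 TCM + R788), and SJ11 and SJ12 (NBT3L TCM + R788).

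The NB9464 TCM was collected in DMEM without serum per the methods of the study, while the sources do not state how NBT3L TCM was prepared, which medium the NS and R788 cells had, or in what R788 was dissolved. TCM and base medium therefore cannot be told apart in a comparison of TCM with NS. Nor can the line and the preparation of its medium in a comparison of NB9464 TCM with NBT3L TCM. Nothing in the labels said that the 2 libraries of a group came from separate mice or cultures, so the errors and p-values measure only the spread between these libraries, which may be technical. Total counts were between 44977847 and 56449685 per library. In SJ8, the deepest library, 16149 genes were detected, against 17275 to 18343 in the other 11, so values of the R788 group are also given without it. The macrophage markers were detected in every group, with Lyz2, the macrophage lysozyme, at a mean of between 65162 and 75914 TPM (counts divided by gene length and scaled to a fixed sum per library). The 11 neuroblastoma markers summed to between 232 and 244 normalized counts in NS, 212 and 283 in NB9464 TCM, and 399 and 511 in NBT3L TCM, or at most 5.22 TPM in any library. Th and Chga had no counts in any library, and Mycn, counted as the mouse gene only, was at 0.50 TPM or less in every group mean. Of the 11, 9 were at 0 in NS and 6 with NB9464 TCM, against 3 with NBT3L TCM, where Dbh and Chgb had means of 20.7 and 13.1 normalized counts, and most of the sum in each group was Elavl4 (237 in NS and 376 in NBT3L TCM). Their part in the results was not tested.

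The acute phase response is the change in secreted proteins that follows infection, injury or tumor growth. It is best known from the liver, where IL-6 acts through STAT3 and where IL-1 and TNF act through NF-kB, together with C/EBP transcription factors, but macrophages and epithelia make several of the same proteins locally. Saa3 is the mouse serum amyloid A that is made mainly outside the liver. Hp encodes haptoglobin, which binds free hemoglobin so that macrophages can take it up through CD163. Lcn2 encodes lipocalin 2, which binds bacterial siderophores and so withholds iron, and which also pairs with the protease MMP9. Slpi encodes secretory leukocyte protease inhibitor, a WFDC (whey acidic protein) family protein that blocks neutrophil elastase and cathepsin G.

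On GRCm38 with the GENCODE M21 annotation, all 4 genes are protein-coding and lie on the minus strand. Saa3 (ENSMUSG00000040026) spans chromosome 7 from 46711998 to 46715700, Hp (ENSMUSG00000031722) chromosome 8 from 109575128 to 109579172, Lcn2 (ENSMUSG00000026822) chromosome 2 from 32384633 to 32388252, and Slpi (ENSMUSG00000017002) chromosome 2 from 164354070 to 164389095. Exons of Slpi overlap the microRNA gene Mir7678 on the same strand, and no other gene overlapped an exon of the other three. RefSeq promoter windows (GRCm38.p6, from 250 bases before to 50 bases after the start) matched 3 of the 4 genes, Saa3, Lcn2 and Slpi. Their sequence is shown because the 3 genes share high levels with TCM and because motifs of the acute phase factors can be read in it directly. The stretches leave out bases annotated as exon, are written 5′ to 3′ along the gene, and carry motif matches in capitals. The matches stand for C/EBP in Saa3 and Slpi and for NF-kB in Lcn2.

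Saa3, chr7:46715701-46715926, minus strand, bases -250 to -25 from the RefSeq start: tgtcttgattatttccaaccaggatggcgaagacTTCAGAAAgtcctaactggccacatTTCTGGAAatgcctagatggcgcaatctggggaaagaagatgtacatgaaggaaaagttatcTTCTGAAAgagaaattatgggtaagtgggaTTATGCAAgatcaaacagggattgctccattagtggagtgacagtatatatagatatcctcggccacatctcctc
Lcn2, chr2:32387798-32387850, minus strand, bases -111 to -59: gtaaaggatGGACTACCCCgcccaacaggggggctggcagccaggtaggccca
Slpi, chr2:164356508-164356757, minus strand, bases -250 to -1: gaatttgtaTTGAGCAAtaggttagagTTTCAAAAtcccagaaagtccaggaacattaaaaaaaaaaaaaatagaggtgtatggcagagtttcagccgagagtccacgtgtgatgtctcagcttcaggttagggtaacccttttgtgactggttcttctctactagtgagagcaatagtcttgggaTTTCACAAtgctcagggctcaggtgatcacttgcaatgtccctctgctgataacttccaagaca

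Both strands were searched for 3 patterns in which N is any base. The C/EBP pattern TTNNGNAA matched 4 times in the Saa3 window, at -216, -191, -129 and -99, and 3 times in the Slpi window, at -241, -223 and -64. The Lcn2 window held 1 C/EBP match, at -216, which lies outside the printed stretch, and 1 match to the NF-kB pattern GGGNNNNNCC, read on the opposite strand from -102 to -93. The STAT pattern TTCNNNGAA had no match in these 3 windows, and no match overlapped another. Such short patterns are common: of 32534 promoter windows of the same length, 40.7% held the C/EBP, 51.0% the NF-kB and 8.33% the STAT pattern. A match says only that the letters are there.

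Saa3 was among the most abundant transcripts of every macrophage culture with TCM. Its normalized counts (counts divided by the size factor of the library) were 17338 and 20855 in NS and 13744 and 10665 in R788. NB9464 TCM libraries had 1202500 and 1403750, and those of NBT3L TCM 1420920 and 1355810. With R788 added they were 2038600 and 1937810 in NB9464 TCM and 1731600 and 1803800 in NBT3L TCM. The 8 libraries with TCM lay far above the 4 without, and those with TCM and R788 lay above those with TCM alone. As a level per length, Saa3 was at 466 ± 50.5 TPM (SD, n = 2) in NS and at 38726 ± 70.4 TPM (SD, n = 2) in NB9464 TCM + R788. It ranked 3 among all genes by TPM in each of the 8 libraries with TCM, against ranks between 271 and 521 in the other 4. Saa3 alone took between 2.34% and 3.86% of all counts with TCM, against 0.0366% and 0.0439% in NS. How reads shared between Saa3 and its paralogs Saa1 and Saa2 were counted was not stated, and these paralogs reached at most 74.6 and 32.9 normalized counts in any library.

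Hp was low in macrophages without TCM, with normalized counts of 516 and 510.1 in NS and of 679 and 525 in R788. They were 36646 and 38799 in NB9464 TCM and 54097 and 53479 in NB9464 TCM + R788. In NBT3L TCM they were 19221 and 18920, and in NBT3L TCM + R788 17746 and 18290. The 2 kinds of TCM were thus separate in Hp, with NB9464 TCM the higher with and without R788. On the per-length scale the group means ran from 20.3 TPM in NS to 1701 TPM in NB9464 TCM + R788.

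Lcn2 followed the same order among the TCM groups as Hp. It had normalized counts of 1164 and 1231 in NS, 785 and 611 in R788, 144069 and 145696 in NB9464 TCM, and 94758 and 94620 in NBT3L TCM. With R788 added it had 180130 and 173826 in NB9464 TCM and 82093 and 84055 in NBT3L TCM. No libraries of different groups overlapped for Lcn2, and how many of all tested genes share this was not counted. Lcn2 ranked between 19 and 24 by TPM in the 4 libraries with NB9464 TCM and between 49 and 52 in the 4 with NBT3L TCM.

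After Saa3, Slpi had the highest level in NS, 140 ± 14.7 TPM (SD, n = 2), against 29.1 ± 0.51 TPM for Lcn2 and 20.3 ± 0.60 TPM for Hp. Its normalized counts were 2361 and 2828 in NS, 2525 and 2073 in R788, 37551 and 41828 in NB9464 TCM, and 67619 and 63763 in NBT3L TCM. With R788 added they were 46511 and 43892 in NB9464 TCM and 53823 and 54718 in NBT3L TCM. Slpi was therefore highest with NBT3L TCM, unlike Hp and Lcn2, and the NS and R788 libraries overlapped. The mean normalized counts of the lowest and the highest group lay 28.6-fold apart for Slpi, 105-fold for Hp, 163-fold for Saa3 and 254-fold for Lcn2.

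**Figure D1:**
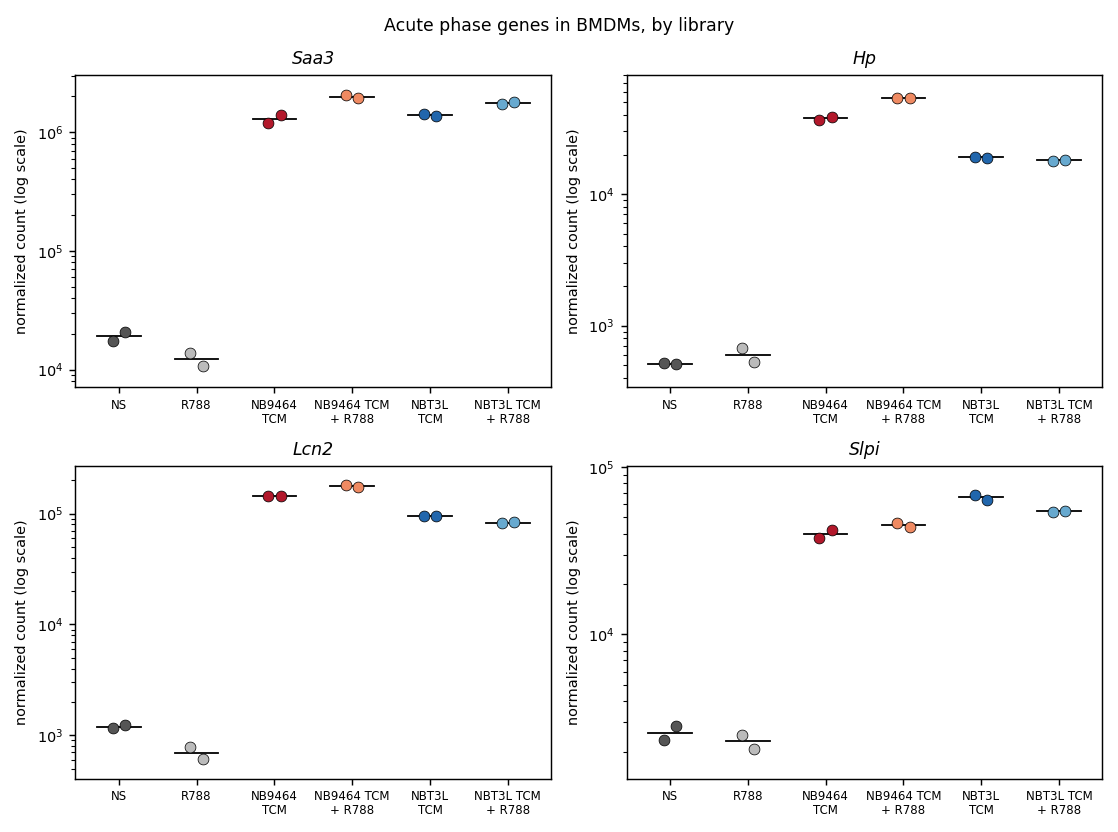
Normalized count (log scale) of Saa3, Hp, Lcn2 and Slpi in each of the 12 libraries, by group, with a bar at the mean of the 2 libraries. In each panel the 8 libraries with TCM sit above the 4 without, and NB9464 TCM sits above NBT3L TCM for Hp and Lcn2 but below it for Slpi.

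The groups were ordered by their mean log2 level, and neighbours were set against the spread between replicates, taken as the SD of log2 normalized counts within groups pooled over all 6 groups: 0.15 for Saa3, 0.11 for Hp, 0.11 for Lcn2 and 0.13 for Slpi. For Saa3 the order from low to high was R788, NS, NB9464 TCM, NBT3L TCM, NBT3L TCM + R788 and NB9464 TCM + R788, and NB9464 TCM and NBT3L TCM did not differ beyond that spread (0.095 on the log2 scale). For Hp it was NS, R788, NBT3L TCM + R788, NBT3L TCM, NB9464 TCM and NB9464 TCM + R788, with NBT3L TCM + R788 and NBT3L TCM within the spread (0.082). For Lcn2 the order was R788, NS, NBT3L TCM + R788, NBT3L TCM, NB9464 TCM and NB9464 TCM + R788, and each neighbouring pair was further apart than the spread. For Slpi it was R788, NS, NB9464 TCM, NB9464 TCM + R788, NBT3L TCM + R788 and NBT3L TCM, and R788 and NS, 0.18 apart, had overlapping libraries.

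The comparison of TCM with NS asked how macrophages respond to factors from neuroblastoma cells. With NB9464 TCM, the log2 fold change was 6.92 ± 0.068 (SE) for Lcn2, 6.20 ± 0.081 for Hp, 6.09 ± 0.15 for Saa3 and 3.94 ± 0.087 for Slpi, equal to 121-fold, 73.6-fold, 68.2-fold and 15.3-fold higher levels. With NBT3L TCM it was 6.31 ± 0.069 for Lcn2, 6.18 ± 0.15 for Saa3, 5.22 ± 0.081 for Hp and 4.66 ± 0.087 for Slpi. These comparisons share the NS libraries. Both were large contrasts over all genes: 34.1% of the 16281 tested genes were called (adjusted p under 0.05, DESeq2) with NB9464 TCM and 35.3% with NBT3L TCM. Among the tested genes, Lcn2 had the 52nd highest fold change with NB9464 TCM and Slpi the 437th. In bulk RNA, a change in the share of cells that express a gene and a change in RNA per cell cannot be told apart.

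Other acute phase genes were measured from a list of 34, of which 16 passed the filter. With NB9464 TCM 10 of the 16 were called higher and 0 lower, and with NBT3L TCM 9 were called higher and 0 lower. Over all genes, 17.2% and 18.0% were called higher and 16.9% and 17.3% lower. The median log2 fold change of the 16 was 1.60 with NB9464 TCM and 2.20 with NBT3L TCM, or 1.60 and 1.40 with the genes at 3 counts or fewer in a group set to 3 counts, beside medians of 0.021 and 0 over all genes tested. Cp, which encodes the copper-carrying ferroxidase ceruloplasmin, rose from normalized counts of 74.2 and 92.9 in NS to 4398 and 3960 with NB9464 TCM and to 2498 and 2496 with NBT3L TCM. Its log2 fold changes were 5.64 ± 0.15 and 4.90 ± 0.15. Orm1, an orosomucoid, had 8.5 and 1.9 normalized counts in NS, 242 and 203 in NB9464 TCM, and 68.1 and 68.2 in NBT3L TCM, and was called higher with both. C3, the central complement component, rose by 2.10 ± 0.046 and 2.09 ± 0.046 on the log2 scale. Ptx3, a long pentraxin made by macrophages, rose by 3.98 ± 0.43 and 2.81 ± 0.44. Il1rn, the IL-1 receptor antagonist, rose by 1.01 ± 0.11 with NB9464 TCM and by 3.02 ± 0.11 with NBT3L TCM. The listed genes that did not pass the filter were mostly those best known from the liver, such as Crp, Fga and Fgb. Saa1 passed it and was at 0 in NS and at 31.6 to 63.1 normalized counts with TCM alone.

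Slpi was also set beside its own family. Of 25 WFDC and lipocalin family genes, 24 were in the table and 10 passed the filter, of which 4 were called higher with NB9464 TCM, 4 with NBT3L TCM and 0 lower. Their medians were 3.86 and 3.82, or 1.58 and 1.84 with genes at 3 counts or fewer in a group set to 3 counts. Of all tested genes, 17.2% and 18.0% were called higher and 16.9% and 17.3% lower, with medians of 0.021 and 0. Wfdc17, a small WFDC gene expressed by activated macrophages, had 3555 and 3769 normalized counts in NS, 58524 and 61759 with NB9464 TCM, and 61282 and 61925 with NBT3L TCM. The fold changes of Wfdc17 were 4.04 ± 0.069 and 4.07 ± 0.069 on the log2 scale. Wfdc21 rose by 5.68 ± 0.14 and 6.00 ± 0.14, from 68.6 and 84.4 to between 3812 and 4944 normalized counts. The fatty acid carriers Fabp4 and Fabp5, which share the lipocalin fold of Lcn2 in a wider sense, were at 0.70 ± 0.21 (called) and 0.081 ± 0.086 (not called) with NB9464 TCM, and the call of Fabp4 was lost without NS library SJ2 (0.50) or NB9464 TCM library SJ3 (0.50).

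Of 30 listed and tested regulators of acute phase genes, 19 were called higher and 4 lower with NB9464 TCM, and 20 higher and 5 lower with NBT3L TCM. Over all genes, 17.2% and 18.0% were called higher and 16.9% and 17.3% lower. The median log2 fold change of the 30 was 0.81 and 0.99, beside 0.021 and 0 over all genes. The NF-kB subunit gene Rela, at -0.050 ± 0.073 and -0.066 ± 0.073, and Nr3c1, the glucocorticoid receptor, at -0.19 ± 0.096 and -0.21 ± 0.096, were called with neither TCM. Among the cytokines, Csf3 (G-CSF) had normalized counts of 1.9 and 5.7 in NS, 4558 and 4965 with NB9464 TCM, and 7308 and 6902 with NBT3L TCM. Il6 had 0 and 3.8 in NS, 259 and 327 with NB9464 TCM, and 710.4 and 671 with NBT3L TCM. Il1b rose by 4.28 ± 0.17 and 7.43 ± 0.17. Both Csf3 and Il6 were called higher with each TCM. Among the transcription factors and their inhibitors, Nfkbiz, which encodes the NF-kB cofactor IkB-zeta needed for Lcn2 induction, rose by 3.03 ± 0.067 and 2.83 ± 0.067. Cebpd rose by 1.72 ± 0.068 and 1.63 ± 0.068, Cebpb by 1.09 ± 0.069 and 1.17 ± 0.069, and Stat3 by 0.53 ± 0.068 and 0.68 ± 0.068. Socs3, a target and feedback inhibitor of STAT3, rose by 5.24 ± 0.18 and 5.41 ± 0.18.

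Receptors, partners and iron genes moved in both directions. Of 28 listed and tested, 12 were called higher and 10 lower with NB9464 TCM (median 0.32), and 11 higher and 9 lower with NBT3L TCM (median 0.059). The shares over all genes were 17.2% and 18.0% called higher and 16.9% and 17.3% lower, with medians of 0.021 and 0. Mmp9, the partner of Lcn2, rose by 2.13 ± 0.079 and 3.02 ± 0.079. Fpr2, a receptor for serum amyloid A, rose by 3.60 ± 0.070 and 3.53 ± 0.070, and the formyl peptide receptor Fpr1 by 4.22 ± 0.082 and 4.18 ± 0.082. Slc40a1, the iron exporter ferroportin, had normalized counts of 4343 and 4366 in NS and fell to 1149 and 1022 with NB9464 TCM and to 1155 and 1267 with NBT3L TCM. Cd163, the receptor for haptoglobin and hemoglobin, was 0.55 ± 0.15 higher with NB9464 TCM and called, and was at -0.27 ± 0.16 with NBT3L TCM, not called.

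**Figure D2:**
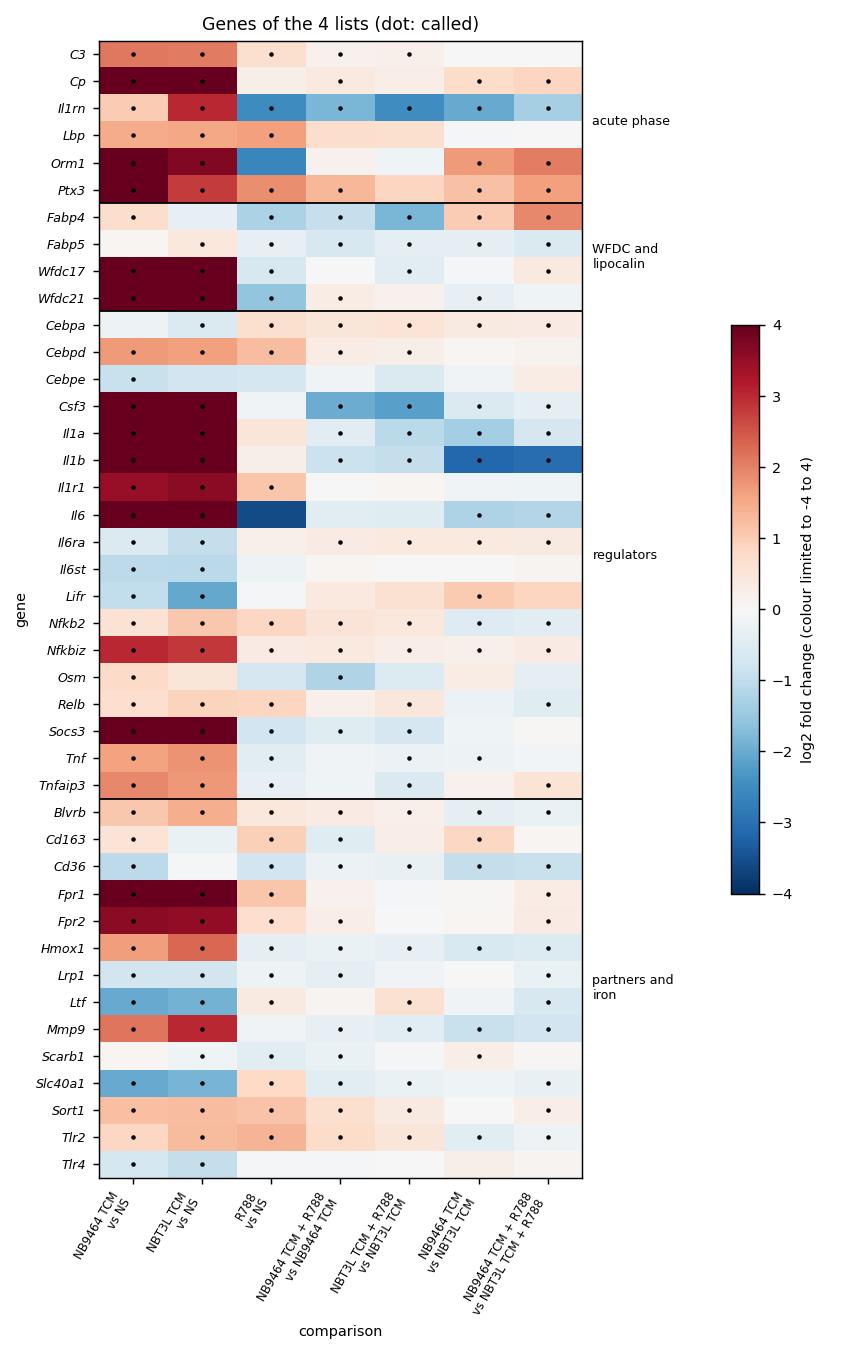
Log2 fold change (colour, limited to -4 to 4) of the named genes of the 4 lists in the 7 comparisons, with a dot where the gene was called at an adjusted p under 0.05. Cp, Wfdc17, Wfdc21, Csf3, Il1b and Socs3 are deep red in both TCM columns, and Il1rn and Csf3 are blue where R788 was added to TCM.

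Lcn2, Hp and Slpi are also made in the neutrophil lineage, so 19 neutrophil markers were read in the same libraries. Their summed normalized counts were between 18978 and 19991 in NS, 50659 and 52672 in NB9464 TCM, and 52903 and 53729 in NBT3L TCM. In R788 they were between 25851 and 27382, in NB9464 TCM + R788 between 36617 and 37501, and in NBT3L TCM + R788 between 35717 and 36489. The sum was thus higher with TCM, as the 4 acute phase genes were. Within TCM it was lower with R788, as were Lcn2, Slpi and, within the spread between replicates, Hp in NBT3L TCM. In contrast, all 4 genes in NB9464 TCM and Saa3 in NBT3L TCM were higher with R788. The markers moved in both directions. With NB9464 TCM, S100a8 rose by 2.26, Mmp8 by 1.89 and Csf3r, the receptor for G-CSF, by 1.61 on the log2 scale, and the same markers rose with NBT3L TCM by 2.66, 1.80 and 2.09. Ngp fell by 1.29 and Ltf by 2.03 with NB9464 TCM, and by 1.67 and 1.90 with NBT3L TCM. Mpo, Elane and Retnlg were called lower with each TCM, from 1.30, 3.71 and 6.42 TPM in NS to no more than 0.046, 0.38 and 0.43 TPM in any TCM group. Stfa2 had no counts and Ly6g was at 0.13 TPM or less in every group mean. The part of neutrophil lineage cells in the levels of the acute phase genes was not tested.

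**Figure D3:**
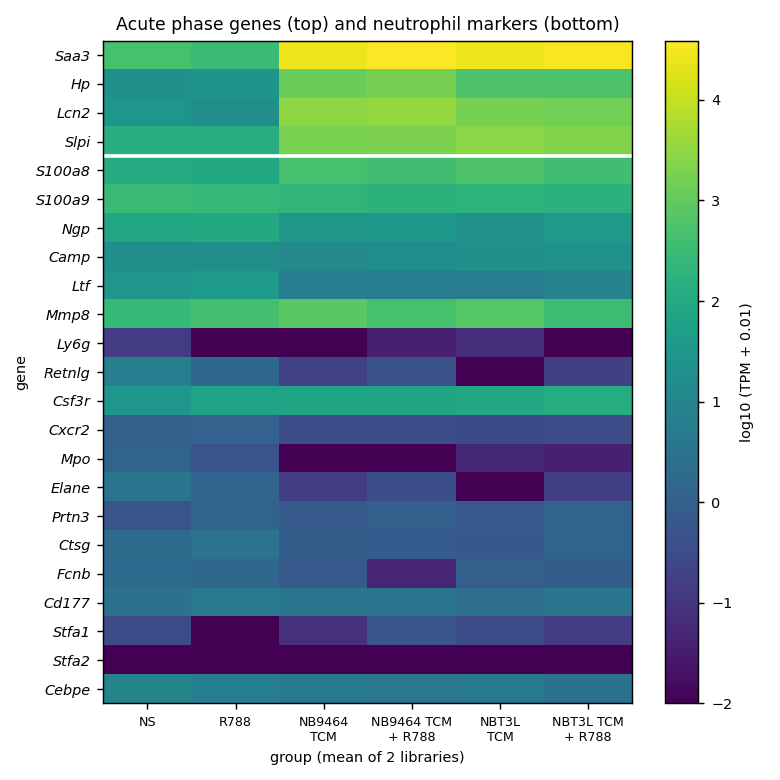
Mean level of 2 libraries (colour, log10 of TPM + 0.01) of Saa3, Hp, Lcn2 and Slpi above the white line and of the 19 neutrophil markers below it, by group. The acute phase genes brighten in the 4 TCM columns, as do Mmp8 and S100a8, while Ltf and Ngp darken and Ly6g and Stfa2 stay dark.

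The comparison of both kinds of TCM asked whether medium of a line with amplified MYCN acts differently from that of a line without it, and rests on 1 line of each. MYCN status, other traits of the line and the preparation of the medium cannot be told apart in it. The 4 genes split into 3 patterns. Hp and Lcn2 were higher with NB9464 TCM than with NBT3L TCM, by 0.98 ± 0.069 and 0.61 ± 0.062 on the log2 scale, or 1.98-fold and 1.53-fold. Slpi was lower, by a log2 difference of -0.73 ± 0.085, or 0.60 of its level with NBT3L TCM. Saa3 was at -0.091 ± 0.15, with overlapping libraries and a 95% interval from -0.38 to 0.20. Over all genes, 9.40% were called in this comparison, 3.69% higher and 5.72% lower. When R788 was present in both, the differences were 1.58 ± 0.069 for Hp, 1.09 ± 0.062 for Lcn2, 0.17 ± 0.15 for Saa3 and -0.26 ± 0.085 for Slpi, and 9.62% of all genes were called, 3.53% higher and 6.09% lower.

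The other acute phase genes split in the same comparison as well, with 3 called higher with NB9464 TCM and 1 lower (median 0.42, or 0.38 with genes at 3 counts or fewer in a group set to 3 counts, beside -0.0014 over all genes). Orm1 was higher by 1.71 ± 0.60 (adjusted p = 0.0403, DESeq2), a call lost with edgeR (adjusted p = 0.11) and without any 1 of SJ3, SJ4, SJ5, SJ6, SJ9 or SJ10, where the value of Orm1 was between 1.57 and 1.83. Cp was higher by 0.74 ± 0.10, and Ptx3 by 1.17 ± 0.35, a call lost without any 1 of SJ3, SJ4, SJ5 or SJ6, where the value of Ptx3 was between 1.04 and 1.31. Il1rn was lower, by 2.01 ± 0.11 on the log2 scale. Of the regulators, 4 were called higher and 10 lower with NB9464 TCM (median -0.13). Il1b was 3.16 ± 0.10 lower, Il6 1.24 ± 0.25 lower and Csf3 0.58 ± 0.11 lower (log2 scale), while Cebpb was at -0.071 ± 0.068, Cebpd at 0.084 ± 0.066 and Stat3 at -0.15 ± 0.068, none of them called. Of the partners, 2 were called higher and 8 lower, Mmp9 among the latter with -0.89 ± 0.074. Of the WFDC and lipocalin family, 1 was called higher and 2 lower, and Wfdc17, not called, was at -0.035 ± 0.067. Wfdc21, among the lower, was at -0.31 ± 0.090, a call lost with edgeR (adjusted p = 0.207). It was also lost without any 1 of SJ1, SJ3 to SJ6 or SJ9 to SJ12, where the value was between -0.36 and -0.28. With R788 in both media the counts were 3 higher and 1 lower for acute phase genes, 4 and 8 for regulators, 3 and 12 for partners, and 2 and 1 for the family.

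R788 without TCM went with lower Saa3 and Lcn2. Against NS the log2 fold change was -0.65 ± 0.15 for Saa3, -0.78 ± 0.077 for Lcn2, 0.23 ± 0.090 for Hp and -0.18 ± 0.089 for Slpi, and Slpi overlapped. In this comparison 26.6% of all genes were called, 11.6% higher and 15.0% lower. Without SJ8 the values were -0.48 for Saa3, -0.61 for Lcn2, 0.40 for Hp and -0.040 for Slpi, and without SJ7 they were -0.84, -0.97, 0.034 and -0.32. Without NS library SJ1 or SJ2, Slpi was at -0.30 or -0.041. Of the 16 other acute phase genes 3 were called higher and 1 lower (median 0, or -0.014 with genes at 3 counts or fewer in a group set to 3 counts). C3 rose by 0.64 ± 0.046 and Il1rn fell by 2.51 ± 0.12. Of the regulators 11 were called higher and 3 lower, with Cebpd at 1.22 ± 0.068 and Cebpb at 0.30 ± 0.069. Of the partners 9 were called higher and 6 lower. Of the WFDC and lipocalin family 0 were called higher and 4 lower, among them Wfdc17 with -0.64 ± 0.072 and Wfdc21 with -1.58 ± 0.23, a call lost in a fit of the 4 compared libraries alone (adjusted p = 0.124, DESeq2).

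R788 added to NB9464 TCM went with higher levels of each of the 4 genes, and no libraries overlapped. How many of all tested genes had libraries that did not overlap was not counted. The log2 fold change against NB9464 TCM was 0.61 ± 0.15 for Saa3, 0.51 ± 0.068 for Hp, 0.29 ± 0.062 for Lcn2 and 0.19 ± 0.085 for Slpi, which is between 1.14-fold and 1.53-fold. Among the fold changes of all tested genes, these lay between percentile 71.9 (Slpi) and percentile 89.5 (Saa3). In this comparison 14.5% of all genes were called, 5.79% higher and 8.70% lower. Of the other acute phase genes 3 were called higher and 1 lower (median 0.30, or 0.38 with genes at 3 counts or fewer in a group set to 3 counts). Ptx3 rose by 1.32 ± 0.33 and Cp by 0.38 ± 0.10, the latter not called without SJ4 (0.30) or SJ10 (0.32), while Il1rn fell by 1.83 ± 0.12. The regulators were called higher in 7 and lower in 7 of 30. Csf3 fell by 1.98 ± 0.11, Il1b by 0.86 ± 0.11, and Nfkbiz rose by 0.39 ± 0.062. Il6 was at -0.42 ± 0.26 and not called. Of the partners 4 were called higher and 7 lower, and of the WFDC and lipocalin family 1 higher and 2 lower. The 1 called higher was Wfdc21, at 0.31 ± 0.090, a call lost with edgeR (adjusted p = 0.147). It was also lost without any 1 of SJ1, SJ3 to SJ6 or SJ9 to SJ12, where the value was between 0.27 and 0.35.

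R788 added to NBT3L TCM divided the 4 genes. Against NBT3L TCM the log2 fold change was 0.35 ± 0.15 for Saa3, -0.082 ± 0.069 for Hp, -0.19 ± 0.062 for Lcn2 and -0.28 ± 0.085 for Slpi. No libraries overlapped, although the difference of Hp lay within the pooled spread, and its 95% interval ran from -0.22 to 0.053. Here too the share of all genes without overlap was not counted. Among the fold changes of all tested genes, the 4 lay between percentile 22.2 (Slpi) and percentile 80.9 (Saa3). In this comparison 12.6% of all genes were called, 5.33% higher and 7.24% lower. Of the other acute phase genes 1 was called higher and 1 lower (median 0.31): C3 rose by 0.19 ± 0.045, a call lost without SJ6 (0.16) or SJ11 (0.18), and Il1rn fell by 2.49 ± 0.11. Of the regulators 6 were called higher and 8 lower, with Csf3 at -2.18 ± 0.11, Il1b at -0.96 ± 0.096 and Nfkbiz at 0.26 ± 0.062. Of the partners 4 were called higher and 4 lower, and of the WFDC and lipocalin family 0 higher and 3 lower. Wfdc17 fell by 0.45 ± 0.067. Saa3 thus was higher with R788 in both TCM groups in which Csf3 and Il1rn fell.

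Markers of other cell types also differed with R788. The 7 fibroblast markers summed to between 1309 and 1676 normalized counts in NS and 2651 and 3058 in R788. With R788 added, the sum went from between 1594 and 1774 to between 2280 and 2486 in NB9464 TCM, and from between 2006 and 2260 to between 3529 and 3580 in NBT3L TCM. It was thus higher with R788 in all 3 media, where Saa3 was lower without TCM and higher in both TCM, and in TPM it was at most 25.2 in any library. The collagen genes Col1a1 and Col1a2 rose with R788 in each medium, and Dcn and Lum, other fibroblast markers, were called in none. The 5 B cell markers, of which Ms4a1 and Pax5 were at 0 in each TCM group, summed to between 223 and 248 normalized counts in NB9464 TCM and 454 and 524 in NB9464 TCM + R788, and to between 160 and 173 in NBT3L TCM and 409 and 418 in NBT3L TCM + R788. Without TCM that sum was between 129 and 202 in NS and 94.5 and 139 in R788. Most of it was Cd79b, which rose with R788 in both TCM. The part of these cell types in the R788 differences of the 4 genes was not tested.

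**Figure D4:**
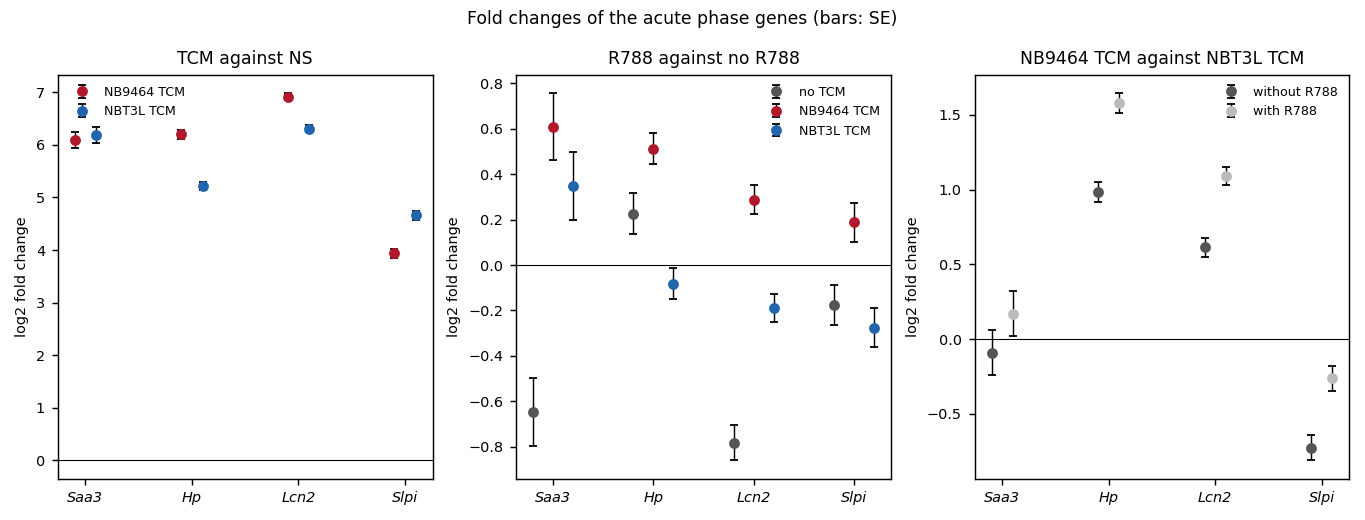
Log2 fold change with SE of Saa3, Hp, Lcn2 and Slpi for each TCM against NS (left), for R788 against no R788 in each medium (centre) and for NB9464 TCM against NBT3L TCM without and with R788 (right). With R788, Saa3 is below 0 without TCM and above 0 in both TCM. Hp, Lcn2 and Slpi are above 0 in NB9464 TCM and below 0 in NBT3L TCM, where Hp lies within the spread between replicates.

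The difference of the R788 fold change between media was computed as a description for the 4 genes. NB9464 TCM minus no TCM gave 1.26 ± 0.21 for Saa3, 1.07 ± 0.099 for Lcn2, 0.36 ± 0.12 for Slpi and 0.29 ± 0.11 for Hp. NBT3L TCM minus no TCM gave 0.99 ± 0.21 for Saa3, 0.59 ± 0.099 for Lcn2, -0.10 ± 0.12 for Slpi and -0.31 ± 0.11 for Hp. Both use the NS and R788 libraries. NB9464 TCM minus NBT3L TCM, which does not use them, gave 0.59 ± 0.097 for Hp, 0.48 ± 0.088 for Lcn2, 0.46 ± 0.12 for Slpi and 0.26 ± 0.21 for Saa3, whose 95% interval ran from -0.15 to 0.67. Of all genes, 12.5%, 10.1% and 0.706% were called in these 3 differences.

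Likeness to other genes was read from Pearson's r of log2(normalized count + 1), first over 12 libraries, which mostly reflects the gap between 8 libraries with TCM and 4 without. Among themselves the 4 genes had r between 0.956 (Hp and Slpi) and 0.993 (Saa3 and Lcn2). Of 10325 protein-coding genes with a mean of at least 100 normalized counts, the most alike were Plpp1, Rac2 and Prdx5 for Saa3 (r up to 0.998), Cp, Vmp1 and Acss2 for Hp (up to 0.996), and D330045A20Rik, Vmp1 and Itga9 for Lcn2 (up to 0.997). Cxcl1 (r = 0.998) and Surf4 (0.997) were among the 3 most alike for Slpi. Cxcl1, a chemokine that attracts neutrophils, had mean normalized counts of 111 in NS, which compare with 3380 for NB9464 TCM and 6002 for NBT3L TCM, and so shared the higher level of Slpi with NBT3L TCM. It was picked by its likeness to Slpi in these same libraries.

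Within the 8 libraries with TCM the genes parted. Hp and Lcn2 had r = 0.993, Slpi had -0.768 with Hp and -0.743 with Lcn2, and Saa3 had between 0.013 and 0.285 with the other three. These points come from 4 groups of 2 libraries. The genes most alike over these libraries were Jdp2, Ghitm and Tsc22d3 for Hp (r up to 0.997) and Fkbp5, Mtdh and Ghitm for Lcn2 (up to 0.996). They were Cox8a, Cib2 and Tmem203 for Saa3 (up to 0.995) and Hspe1, Cstb and Rnf149 for Slpi (up to 0.985). Fkbp5 and Tsc22d3 are known targets of the glucocorticoid receptor. Fkbp5 had mean normalized counts of 3425 in NB9464 TCM, 4972 in NB9464 TCM + R788, 1357 in NBT3L TCM and 958 in NBT3L TCM + R788, the order of Lcn2 in those groups. That shared order follows from picking Fkbp5 by its likeness to Lcn2 in the same libraries. A link of these genes to the glucocorticoid receptor was not tested. In NS and R788, Fkbp5 was at 2405 and 1618, above both NBT3L TCM groups, whereas Lcn2 was far below them there. Tsc22d3 was at 2830, 4029, 968 and 1040 in the same 4 TCM groups and at 3287 in NS and 5983 in R788, so that without TCM Tsc22d3 was higher and Fkbp5 lower with R788.

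**Figure D5:**
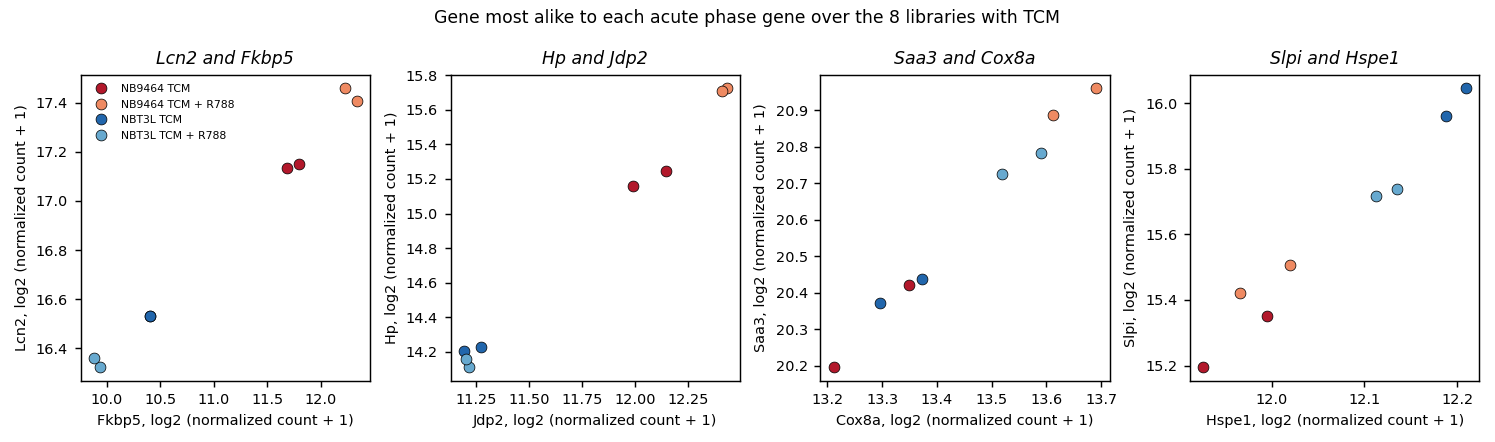
Log2(normalized count + 1) of each acute phase gene against that of its most alike gene over the 8 libraries with TCM, coloured by group. Fkbp5 and Lcn2, and Jdp2 and Hp, run from the NBT3L groups at the lower left to NB9464 TCM + R788 at the upper right, whereas Hspe1 and Slpi are highest in NBT3L TCM.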

How the data were processed

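Poly(A)-selected RNA of 12 BMDM libraries was sequenced by the authors, mapped to mm10 with STAR and quantified with Salmon in bcbio; the processing notes list STAR 2.6.1d and Salmon 1.4.0. The deposited values were whole-number counts per Ensembl gene, not divided by length or depth. The program that wrote the counts, its strand setting and its treatment of reads mapping to several places are not given in the sources used here. The labels state paired-end reads and 2 libraries per group, the methods single reads in triplicate. Counts were used as deposited, or divided by 2 as an alternative. Symbols matched 54079 of 54232 IDs.

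Genes were fitted where 2 or more libraries had 10 or more counts. DESeq2 1.42.0 (R 4.3.3), which the study names, was run with median-of-ratios size factors, a mean per group, all 12 libraries in 1 model, two-sided Wald tests, unshrunken log2 fold changes, Benjamini-Hochberg adjustment per comparison, and calls at an adjusted p under 0.05. Alternatives were edgeR 4.0.16 (quasi-likelihood, TMM), other scalings and filters, apeglm shrinkage, fits of the compared libraries alone, a minimum log2 fold change of 1, and leaving out each library. The scripts were tested on simulated data.

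The 4 members and the gene lists were chosen with earlier results of these data known. Named list genes were, per list and comparison, the 3 highest and 3 lowest fold changes among called genes with a mean of at least 100 normalized counts. Csf3, Il6, Il1b, Nfkbiz, Cebpb, Cebpd, Stat3 and Mmp9 were named throughout. Wfdc17, Fabp5, Cd163, Saa1 and Saa2 are also given where the rule did not name them, after their values were seen. Neutrophil and other markers were given as levels. Likeness was ranked by Pearson's r, with the 3 highest genes named, except a gene that is not reported here.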

Additional observations from a re-analysis of the deposited data

Results flagged for a closer look

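For 7 differences of the R788 fold change between media, libraries with and without R788 did not overlap in either medium, and the 2 fold changes had opposite signs. These differences were not tested. How many of all tested genes meet the same rule was not counted, so the 7 have no base rate to be read against. Saa3 was lower with R788 without TCM and higher with it in TCM, a difference of 1.26 ± 0.21 (SE, log2 scale) for NB9464 TCM and of 0.99 ± 0.21 for NBT3L TCM. Lcn2 was lower with R788 without TCM and higher in NB9464 TCM, a difference of 1.07 ± 0.099. Hp was higher with R788 without TCM and lower in NBT3L TCM, a difference of -0.31 ± 0.11 that was -0.12 without SJ7 and -0.49 without SJ8. Between the 2 kinds of TCM, R788 went with higher levels in NB9464 TCM and lower ones in NBT3L TCM for Hp (0.59 ± 0.097), Lcn2 (0.48 ± 0.088) and Slpi (0.46 ± 0.12). In both differences of Hp, its lower level with R788 in NBT3L TCM (-0.082 ± 0.069) lay within the spread between replicates. Against NS, Hp with R788 was at 0.034 without SJ7.

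Among the other genes described, 17 differences of the R788 fold change passed the interaction test of DESeq2 (adjusted over all tested genes), and those against no TCM share the NS and R788 libraries. The genes read were acute phase and WFDC list genes named in a comparison with R788, the genes named throughout, and Cd163. Of all genes, 12.5% were called for NB9464 TCM minus no TCM, 10.1% for NBT3L TCM minus no TCM and 0.706% between the kinds of TCM. For NB9464 TCM minus no TCM, Wfdc21 differed by 1.89 (adjusted p = 5.35e-12), Il1rn by 0.69 (0.000724), Wfdc17 by 0.62 (1.44e-08), C3 by -0.47 (2.47e-11), Cebpd by -0.92 (1.24e-19), Il1b by -1.09 (5.22e-05) and Cd163 by -1.44 (1.43e-09). For NBT3L TCM minus no TCM, Wfdc21 differed by 1.75 (2.44e-10), Stat3 by -0.31 (0.0154), Mmp9 by -0.32 (0.0377), C3 by -0.45 (4.52e-10), Cd163 by -0.70 (0.0156), Cebpd by -0.98 (3.52e-22), Il1b by -1.19 (4.38e-06) and Csf3 by -2.03 (0.0454). For NB9464 TCM minus NBT3L TCM, Il1rn differed by 0.66 (0.00997) and Wfdc17 by 0.42 (0.00314). With edgeR, 5 of these were not called: Il1rn (adjusted p = 0.209) and Wfdc17 (0.168) between the kinds of TCM, and Csf3 (0.266), Mmp9 (0.0988) and Stat3 (0.0695) in NBT3L TCM. Each was also lost in DESeq2 without a single library: Wfdc17 without SJ9 or SJ11, Il1rn without SJ3, SJ5, SJ6, SJ10 or SJ11, Csf3 without SJ1, SJ2, SJ5, SJ6, SJ7 or SJ11, Stat3 without SJ1, SJ2, SJ5, SJ6, SJ8, SJ11 or SJ12, and Mmp9 without any 1 of SJ2 to SJ6 or SJ8 to SJ12. That of Csf3 in NBT3L TCM rests on at most 7.3 normalized counts in the libraries without TCM, and that of Cd163 in NBT3L TCM was lost without SJ2, SJ5 or SJ11 (between -0.65 and -0.60).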

How the results depend on the processing

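Of 560 fold changes of the 4 genes under alternatives, 539 moved by less than the spread between replicates and 21 by more. Scaled by the share of all counts, chosen after seeing the data, the fold changes with NB9464 TCM were 6.07 for Hp, 6.79 for Lcn2 and 3.81 for Slpi, and with NBT3L TCM 5.95 for Saa3, 4.98 for Hp, 6.07 for Lcn2 and 4.43 for Slpi. Leaving out 1 library in turn gave R788 against NS of -0.84 to -0.48 for Saa3, 0.034 to 0.40 for Hp, -0.97 to -0.61 for Lcn2 and -0.32 to -0.040 for Slpi. Slpi ranged from 3.81 to 4.07 with NB9464 TCM and from 4.54 to 4.80 with NBT3L TCM. For Saa3, NB9464 TCM against NBT3L TCM ranged from -0.21 to 0.015. The difference of the R788 fold change, NB9464 TCM minus no TCM, ranged from 1.08 to 1.45 for Saa3, 0.11 to 0.48 for Hp, 0.90 to 1.26 for Lcn2 and 0.23 to 0.51 for Slpi. NBT3L TCM minus no TCM ranged from 0.82 to 1.19 for Saa3, -0.49 to -0.12 for Hp, 0.42 to 0.78 for Lcn2 and -0.24 to 0.047 for Slpi, which turned to 0.026 without SJ1 and 0.047 without SJ7. That of Csf3 ranged from -3.13 to 2.50, and turned only without SJ7.

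List counts changed by over 1.5 times as follows. The acute phase genes called with R788 in NBT3L TCM were 4 with a mean of at least 50 counts or with the compared libraries alone, and with single libraries left out between 1 and 3. Without SJ4 or SJ10 they were 2 with R788 in NB9464 TCM (range 2 to 4), and without any 1 of SJ3 to SJ6 2 between the kinds of TCM (2 to 4). Regulators called between the kinds of TCM were 9 with edgeR or without SJ5 and 8 without SJ6 (8 to 18), and 9 with R788 in NB9464 TCM without SJ10 (9 to 14). Partners were 5 with R788 in NBT3L TCM without SJ6 or SJ12 (5 to 9), and between the kinds of TCM with R788 9 without SJ10 and 8 without SJ12 (8 to 15). The WFDC and lipocalin family had 1 between the kinds of TCM without SJ3 (1 to 3).

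With a log2 fold change of at least 1 required, which leaves fewer genes by construction, acute phase calls were 2 and 1 with R788 in NB9464 TCM and NBT3L TCM. Regulators were 14 with NB9464 TCM against NS, 2 with R788 against NS, 2 and 2 with R788 in each TCM, and 4 and 2 between the kinds of TCM without and with R788. Partners were 4 with R788 against NS and 0 with R788 in each TCM and between the kinds of TCM. The family had 2 with R788 against NS, 0 and 1 with R788 in each TCM, and 1 and 1 between the kinds of TCM. No paired analysis was possible because the groups share no replicate numbers. With 2 libraries per group, calls rest on a spread shared over all 6 groups.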
